A study of Mus musculus with 19 samples.

Results

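Of the SLAM family receptor genes of chromosome 1, 8 were described in bulk RNA-seq counts of sorted mouse bone marrow monocytes. The 8 genes, Slamf1, Slamf6, Slamf7, Slamf8, Slamf9, Cd48, Cd84 and Ly9, are 8 of the 50854 genes in the count table. Cd244a, whose protein CD244 also belongs to the family, is not one of the 8 and is described with their partners. They were chosen as a family because Slamf8 was among the genes with the largest decrease in resting CCR1/2+ve against resting CCR2+ve monocytes. Values of that contrast are therefore given as a description, with no test, and Slamf8 is tested only where no resting library enters. The cells came from female REP mice aged 8 to 12 weeks, which carry fluorescent reporters of 4 chemokine receptors, Clover for CCR1 and mRuby2 for CCR2 among them. The labels put the libraries in 5 groups. Of the resting cells, 4 libraries were CCR1/2+ve and 4 CCR2+ve. Inflamed CCR1/2+ve monocytes had 3, inflamed CCR2+ve monocytes had 4, and 4 more are labelled inflamed CCR1. The inflamed mice are those that the study gave an osmotic pump delivering IL-3, IL-6, GM-CSF and IFN-α, and whether the resting mice carried a vehicle pump is not given in the sources used here. The sort gate of the study was CD11b+ Ly6C++ Ly6G- SiglecF-, so a population is defined by its reporters and not by CCR1 or CCR2 protein. Nothing in the labels says that libraries of a group came from separate animals, so p-values measure the spread between these libraries, which may be technical.

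SLAM receptors are immunoglobulin-superfamily proteins on blood cells, and most of them bind the same receptor on a neighbouring cell. CD48 is different, since it is held in the membrane by a lipid anchor, has no tail and is the ligand of CD244 and CD2. The tails of Slamf1, Slamf6, Slamf7, Cd84 and Ly9 proteins carry tyrosine motifs that bind small SH2 adaptors (SAP, EAT-2 and ERT, encoded by Sh2d1a, Sh2d1b1 and Sh2d1b2), whereas those of Slamf8 and Slamf9 proteins are short and lack these motifs. In monocytes and macrophages the family is known for roles in phagocytosis and in setting the activity of the NADPH oxidase, which Slamf1 protein is described as raising and Slamf8 protein as lowering.

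On GRCm38 with GENCODE M21 gene models, all 8 are protein-coding genes of chromosome 1. Ly9 (171588624 to 171607410, minus strand), Slamf7 (171632403 to 171653035, minus), Cd48 (171682009 to 171705258, plus), Slamf1 (171767127 to 171801184, plus), Cd84 (171839697 to 171890718, plus) and Slamf6 (171917515 to 171953170, plus) lie side by side over 364.5 kb. Slamf9 (172475358 to 172478575, plus) and Slamf8 (172581758 to 172590568, minus) form a second stretch of 115.2 kb that starts 522.2 kb further along. One member has exons that overlap another gene. The antisense gene Gm37787 covers 9.24% of the exonic bases of Slamf7 and held 19 reads over the 19 libraries. Ly9 and Cd244a are annotated across each other on opposite strands, with no exonic base in common. The counts could not be shown to use strand, and reads of a gene and of an antisense partner cannot then be told apart.

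The sequences just upstream of 3 members are shown because these 3, Slamf8, Slamf7 and Slamf9, are the members that were lower in resting CCR1/2+ve monocytes. Each is the run of 250 bases that ends 1 base before the annotated start in RefSeq (GRCm38.p6), printed 5′ to 3′ on the strand of the gene. Slamf8 is chr1:172590569-172590818 (minus strand), Slamf7 is chr1:171649000-171649249 (minus) and Slamf9 is chr1:172475110-172475359 (plus). The RefSeq start of Slamf7 lies inside the GENCODE gene model, downstream of its outermost start. Capitals mark matches to the motifs searched.
Slamf8: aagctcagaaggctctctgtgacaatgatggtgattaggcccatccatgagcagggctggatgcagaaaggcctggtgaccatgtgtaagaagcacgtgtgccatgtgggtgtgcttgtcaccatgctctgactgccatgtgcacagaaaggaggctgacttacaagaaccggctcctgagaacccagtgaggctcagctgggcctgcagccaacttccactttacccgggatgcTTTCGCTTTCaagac
Slamf7: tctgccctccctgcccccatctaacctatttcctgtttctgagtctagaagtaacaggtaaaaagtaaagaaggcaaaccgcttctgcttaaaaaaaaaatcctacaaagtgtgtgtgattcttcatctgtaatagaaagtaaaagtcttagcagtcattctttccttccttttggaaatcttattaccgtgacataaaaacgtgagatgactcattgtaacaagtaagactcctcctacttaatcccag
Slamf9: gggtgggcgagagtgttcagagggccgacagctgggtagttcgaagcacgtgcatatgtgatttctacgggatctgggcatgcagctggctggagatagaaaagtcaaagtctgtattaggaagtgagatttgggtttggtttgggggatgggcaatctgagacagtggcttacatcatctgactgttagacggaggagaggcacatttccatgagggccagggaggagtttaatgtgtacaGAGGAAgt
RefSeq windows of 300 bases, which reach 50 bases past the start, were found for 7 of the 8 members, all but Ly9. They were searched on both strands for 5 motifs, and the matches did not overlap one another. The core of the interferon-stimulated response element, GAAANNGAAA, was in the Slamf8 window alone among the 7, at 15 to 6 bases before the start and on the opposite strand, and 3.44% of all 32851 windows hold it. The PU.1 core GAGGAA was found in the windows of Slamf9 (8 to 3 bases before the start), Slamf8 and Cd84 (both downstream of the start, outside the printed runs), 3 of 7 against 28.3% of all windows. The gamma-activated site TTCNNNGAA (8.30% of all windows), the ETS-IRF composite GGAANNGAAA (2.72%) and the C/EBP motif TTGCNNAA (10.8%) were in none of the 7. The Slamf7 window held none of the 5 motifs. A match is a string of letters and was not tested for binding.

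The 19 libraries held between 22268658 and 30502009 reads on genes. Levels are in CPM, read counts scaled to a common library size with TMM factors over all 19 libraries. A gene is called where the adjusted p of edgeR's quasi-likelihood test is under 0.05 and the fold change is at least 1 on the log2 scale, among the 18652 genes that averaged 1 read or more per library. Replicate 1 of both resting populations held at most 1 Xist read against 1122 to 7247 in the other 17 libraries, although all are labelled female. The 4 Y-chromosome genes searched held 1 read in resting CCR1/2+ve replicate 1 and 3 reads in resting CCR2+ve replicate 1, and at most 5 in any library. These counts do not settle the sex of those 2 libraries. Some results that rest on them are also given without 1 or both of them, and the others only with them. The libraries labelled inflamed CCR1 went against the label monocyte. Ccr2 was between 4.05 and 9.58 CPM in them against at least 474 CPM in every other library, Csf1r (the receptor of CSF-1) was between 13.7 and 24.1 CPM against at least 320 CPM, and Ngp (neutrophilic granule protein) was between 69722 and 100770 CPM against at most 363 CPM. Itgam, also on the monocyte list, was between 77.6 and 102 CPM in them, within the 74.6 to 157 CPM of the other libraries. Ccr1 itself was between 32.0 and 42.8 CPM there, below every other inflamed library (166 to 421 CPM). They are called the libraries labelled inflamed CCR1 throughout. In the other 15 libraries all 8 monocyte markers were at 10 CPM or more in each group, with a summed level of 25728 to 48258 CPM. The T and NK cell list summed to 3.41 to 80.6 CPM and the B cell and plasma cell list to 18.7 to 41.9 CPM in them. Some other lists had higher sums in inflamed than in resting monocytes. The neutrophil list had medians of 501 (CCR1/2+ve) and 594 CPM (CCR2+ve) at rest, and 1967 and 1243 CPM with inflammation. In the same order, the basophil and mast cell list had 17.9, 10.3, 179 and 184 CPM. The tissue macrophage list had 265, 397, 660 and 728 CPM. The part of these lists in differences between resting and inflamed monocytes was not tested.

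**Figure D1:**
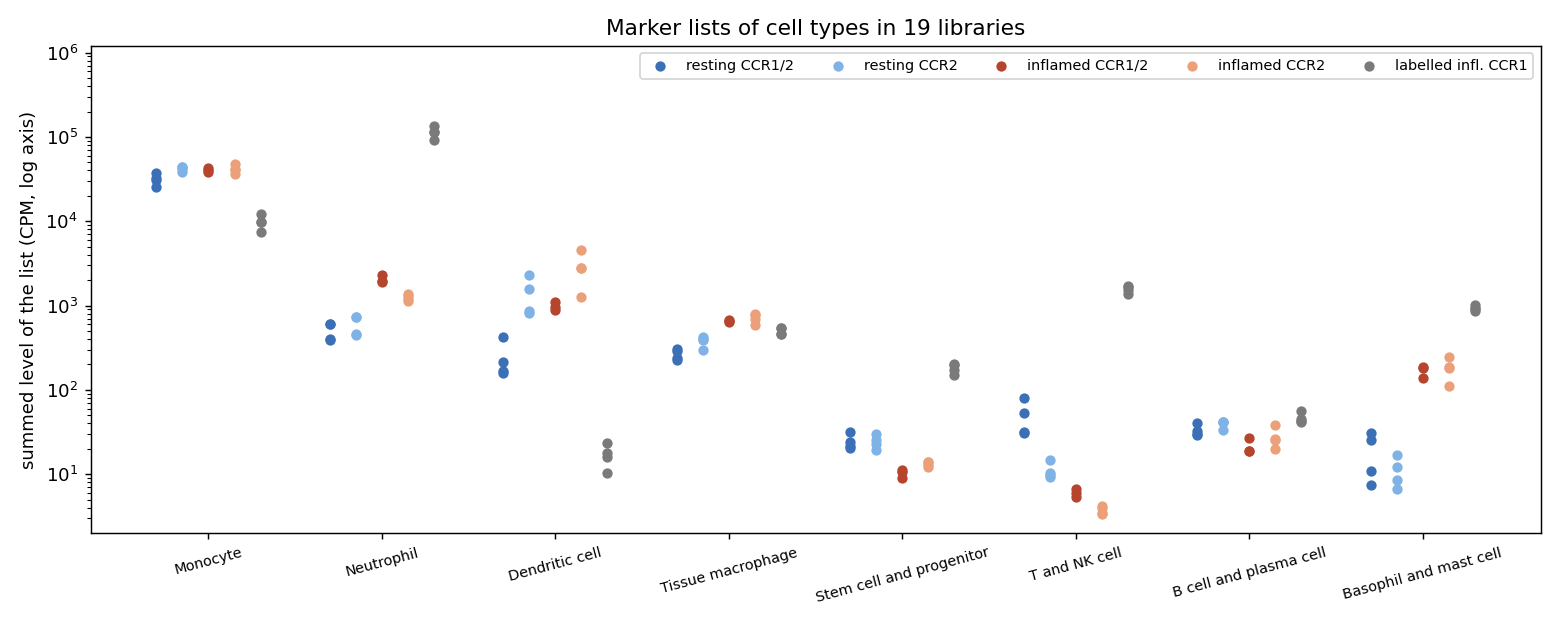
Summed level (CPM, log axis) of each list of cell type markers, with 1 point per library, coloured by group. The 4 libraries labelled inflamed CCR1 lie lowest on the monocyte list (7475 to 12244 CPM) and highest on the neutrophil list (92342 to 135939 CPM).

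Compared per kb of exon, Cd48 had the highest level of the family in each of the 15 monocyte libraries' groups, at 358 ± 40.5 CPM per kb in resting CCR1/2+ve (SD, n = 4), 385 ± 12.3 in resting CCR2+ve (n = 4), 199 ± 5.84 in inflamed CCR1/2+ve (n = 3) and 188 ± 37.0 in inflamed CCR2+ve monocytes (n = 4). Cd84 (37.6 to 45.8 CPM per kb as group means) and Ly9 (30.1 to 41.9) came next, and in resting CCR2+ve monocytes their means, 45.8 ± 3.45 and 41.9 ± 5.24, differed by less than the SD of Ly9. Slamf8 followed in every one of these groups, from 5.69 ± 3.60 to 25.2 ± 5.34 CPM per kb. Below it, the order of Slamf7, Slamf9 and Slamf6 changed between groups. Slamf7 followed Slamf8 in both CCR2+ve groups, at 4.39 ± 2.27 and 3.45 ± 1.68 CPM per kb, though in the inflamed one it did not differ beyond its spread from Slamf9 at 3.32 ± 0.477. In inflamed CCR1/2+ve monocytes Slamf7 was lowest of the 3, at 0.795 ± 0.400 CPM per kb against 2.05 ± 0.838 for Slamf9 and 1.30 ± 0.308 for Slamf6. Resting CCR1/2+ve monocytes had all 3 between 0.422 and 0.701 CPM per kb, within their spread.

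**Figure D2:**
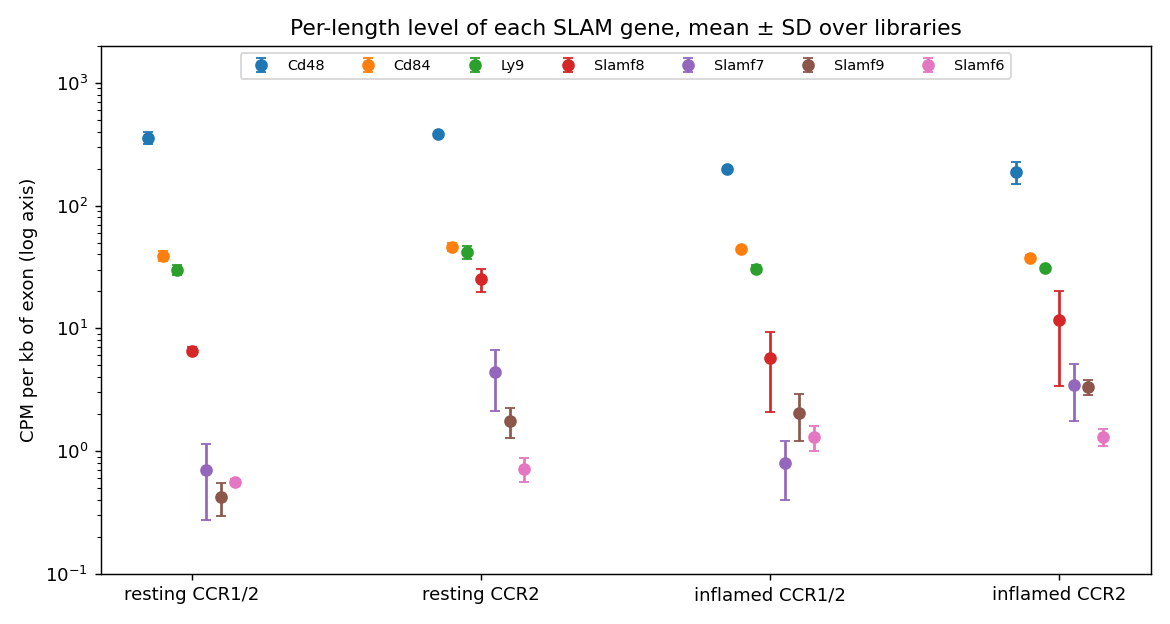
Level per kb of exon (CPM per kb, log axis) of 7 members in the 4 monocyte groups, as mean ± SD over 3 or 4 libraries. Cd48 is highest throughout, from 188 to 385 CPM per kb, and Slamf8 lies below Cd84 and Ly9 in each group.

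Slamf1, the founding member of the family, was close to undetected. It had no read in any library labelled inflamed CCR1 or of inflamed CCR1/2+ve monocytes, where 3 reads over all libraries of a group is the limit that a count of 0 allows. Of the inflamed CCR2+ve libraries, replicate 1 held 21 reads and the other 3 held 0. Resting libraries held 0 to 14 reads, 12 in all in CCR1/2+ve and 22 in all in CCR2+ve monocytes. No fold change is given for it.

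The contrast that chose the family asks how CCR1/2+ve differ from CCR2+ve monocytes at rest. Slamf8, Slamf7 and Slamf9 were lower in CCR1/2+ve monocytes, and Ly9, Slamf6, Cd84 and Cd48 differed by less than 1 on the log2 scale. Slamf8 was at 21.9, 20.2, 18.8 and 20.0 CPM in resting CCR1/2+ve replicates 1 to 4 and at 90.5, 58.4, 69.8 and 92.3 CPM in resting CCR2+ve replicates 1 to 4. The groups did not overlap, and CCR2+ve replicates 1 and 4 were the highest. Its log2 fold change was -1.86 (SE 0.14), and 20.2 ± 1.28 CPM was 0.260 of 77.7 ± 16.5 CPM (SD, n = 4 each). Slamf7, a receptor that promotes phagocytosis by macrophages, was at 6.14, 2.54, 2.04 and 2.13 CPM in CCR1/2+ve and at 33.2, 11.3, 12.2 and 23.6 CPM in CCR2+ve monocytes. Replicate 1 was the highest in both populations and the groups did not overlap. The log2 fold change of Slamf7 was -2.56 (SE 0.48). Slamf9, a short-tailed member like Slamf8, was at 0.394, 0.581, 0.470 and 0.770 CPM (12 to 25 reads a library) against 2.65, 2.21, 1.44 and 2.91 CPM (37 to 70 reads), a log2 fold change of -1.97 (SE 0.33). These 3 are also past the cutoffs of a call, 3 lower and 0 higher, where 1.90% of the genes tested were called lower and 2.34% higher. This contrast chose the family, so nothing is read from that count.

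**Figure D3:**
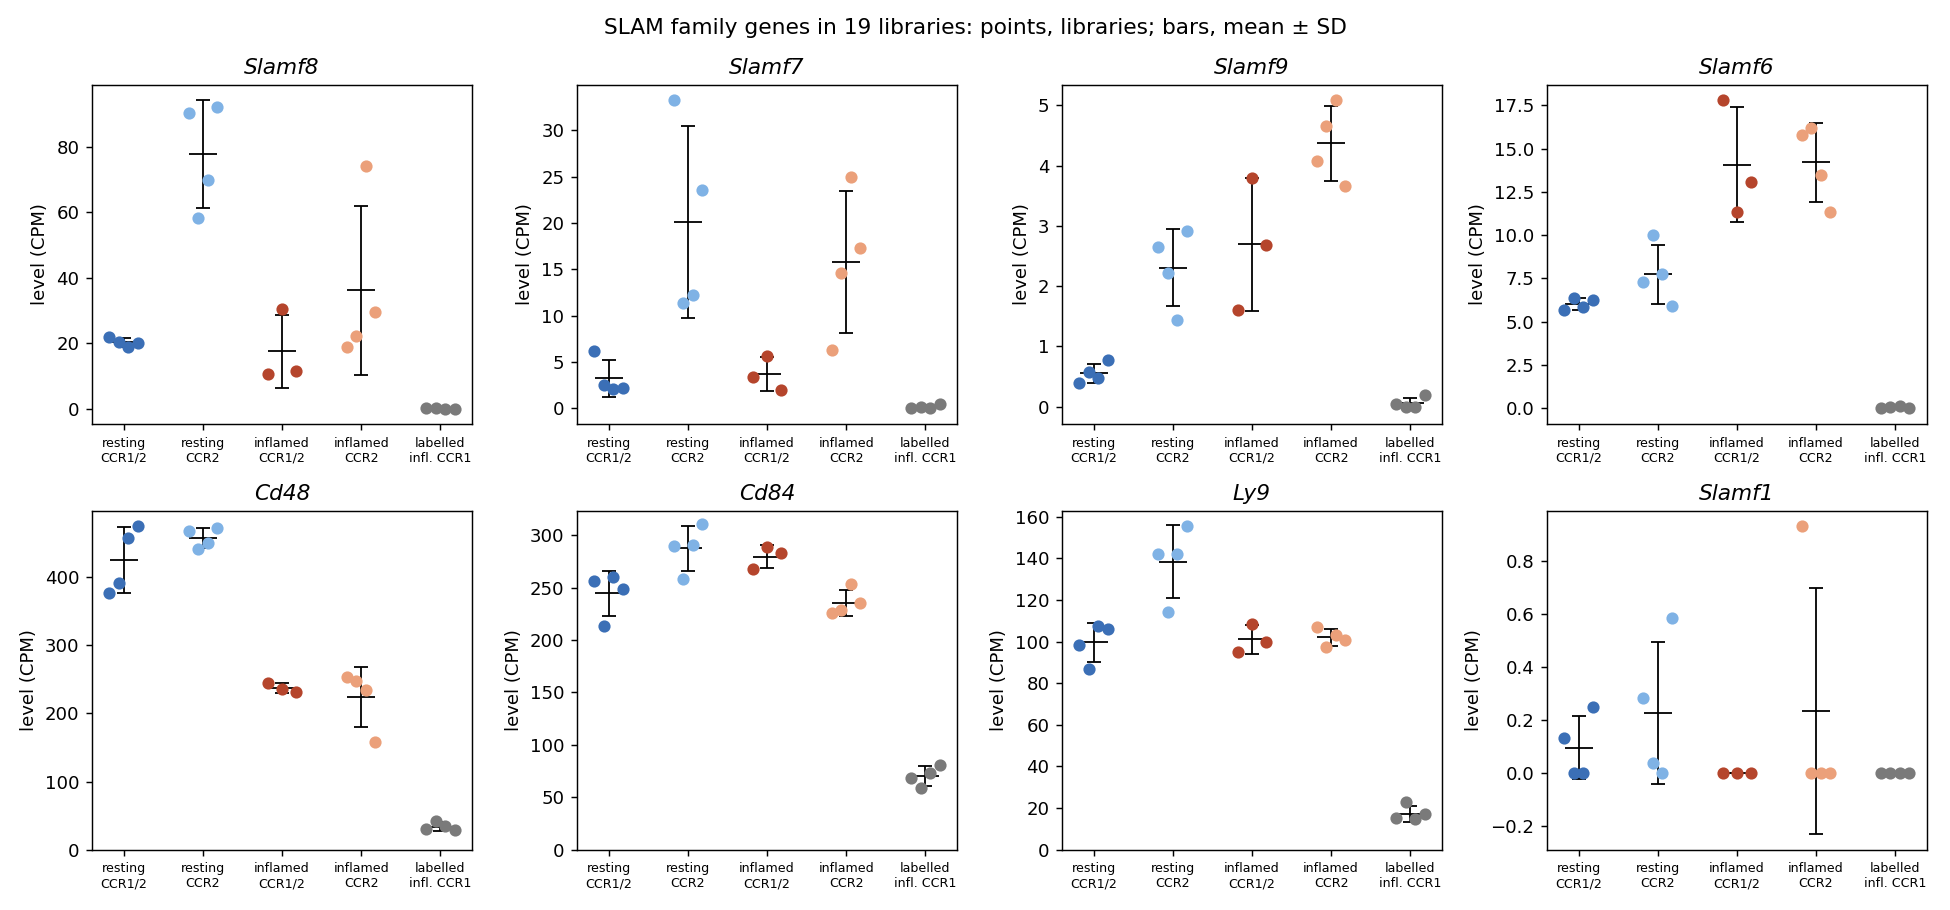
Level (CPM) of the 8 members in all 19 libraries, with 1 point per library, and mean ± SD per group (n = 3 for inflamed CCR1/2+ve, n = 4 otherwise). Slamf8, Slamf7 and Slamf9 separate the resting populations, Cd48 is lower in all inflamed libraries, and every member but Slamf1, which is near 0 in all groups, is lowest in the libraries labelled inflamed CCR1.

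The other members moved little between the resting populations. Ly9, a homophilic receptor, was at 98.4, 86.6, 108 and 106 CPM in CCR1/2+ve and 142, 114, 142 and 156 CPM in CCR2+ve monocytes, which do not overlap, with a log2 fold change of -0.40 (SE 0.09). Cd84 was between 213 and 260 CPM against 258 to 311 CPM (log2 fold change -0.16, SE 0.08), Cd48 between 377 and 475 CPM against 441 to 473 CPM (-0.03, SE 0.08) and Slamf6 between 5.68 and 6.39 CPM against 5.90 to 10.0 CPM (-0.29, SE 0.18), and for these 3 the groups overlapped. The median of the 8 members was -0.75, against 0.03 over all genes tested. Leaving out Slamf1, for which no fold change is given, the middle value was that of Ly9, -0.40. Without both replicate 1 libraries the log2 fold changes were -1.81 for Slamf8, -2.71 for Slamf7, -1.75 for Slamf9 and -0.37 for Ly9, while that of Cd48 turned to 0.040.

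The dendritic cell list holds MHC class II genes, and 2 of them were set beside Slamf8 and Slamf7. H2-Ab1, a class II chain, was at 83.5, 28.6, 19.5 and 34.5 CPM in resting CCR1/2+ve replicates 1 to 4, at 430, 124, 110 and 242 CPM in resting CCR2+ve replicates 1 to 4, at 13.8, 47.4 and 73.4 CPM in inflamed CCR1/2+ve replicates 2 to 4 and at 105, 251, 550 and 135 CPM in inflamed CCR2+ve replicates 1 to 4. Resting CCR2+ve replicate 1 and inflamed CCR2+ve replicate 3 were the highest of their groups for H2-Ab1 and for Slamf7. Inflamed CCR2+ve replicate 3 was also the highest of its group for Slamf8. Cd74, the invariant chain of class II, was at 122 to 303 CPM in resting CCR1/2+ve, 598 to 1696 CPM in resting CCR2+ve, 862 to 1066 CPM in inflamed CCR1/2+ve and 1149 to 3979 CPM in inflamed CCR2+ve monocytes. Between the populations it was lower in CCR1/2+ve monocytes both at rest and with inflammation, like Slamf7, but between resting and inflamed cells its group means went from 177 to 936 CPM in CCR1/2+ve and from 1027 to 2575 CPM in CCR2+ve monocytes, while those of Slamf8 went from 20.2 to 17.5 CPM and from 77.7 to 36.1 CPM. The summed level of the 8 dendritic cell markers was 160 to 419 CPM in resting CCR1/2+ve, 816 to 2291 CPM in resting CCR2+ve, 879 to 1116 CPM in inflamed CCR1/2+ve and 1257 to 4536 CPM in inflamed CCR2+ve monocytes. Cd74 made most of each sum, and most of the list did not rise with it. With inflammation, 5 of the 8 were called lower and 0 higher in CCR2+ve monocytes (19.2% and 9.37% of all genes). In CCR1/2+ve monocytes 4 were called lower and 1 higher (19.4% and 9.16%). Between the resting populations 6 were past the cutoffs as lower and 0 as higher in CCR1/2+ve monocytes (1.90% and 2.34%). Between the inflamed populations 0 were called either way (0.0429% and 0.102%). Of these markers, Siglech was at no more than 3 reads in the inflamed CCR1/2+ve and Clec9a in the inflamed CCR2+ve libraries, and Cd209a was between 65.0 and 137 CPM in resting and between 0.530 and 4.79 CPM in inflamed CCR2+ve monocytes. In these bulk samples fewer cells of a type and less RNA per cell cannot be told apart, and the part of these markers in the Slamf8 and Slamf7 differences was not tested.

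**Figure D4:**
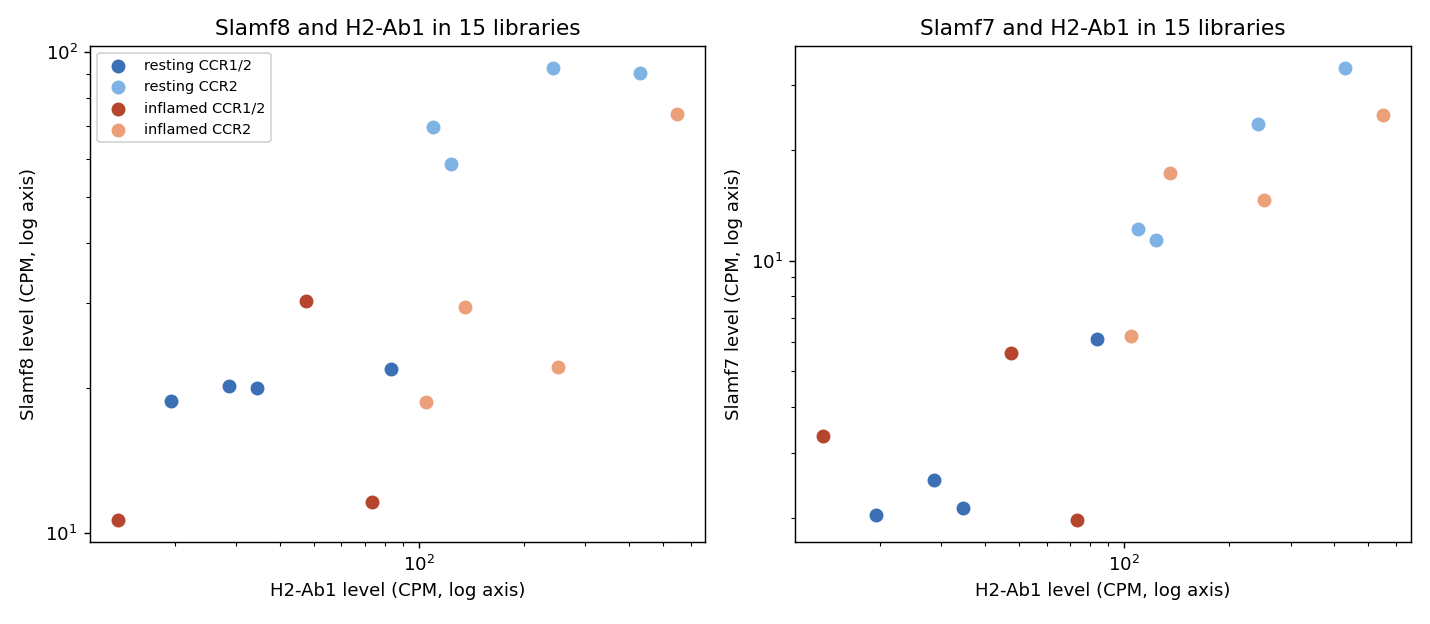
Slamf8 (left) and Slamf7 (right) against H2-Ab1, all in CPM on log axes, with 1 point for each of the 15 libraries of the monocyte groups, coloured by group. Libraries with more H2-Ab1 tend to have more Slamf7, from 2.04 CPM at 19.5 CPM of H2-Ab1 in resting CCR1/2+ve replicate 3 to 24.9 CPM at 550 CPM in inflamed CCR2+ve replicate 3, with inflamed CCR1/2+ve replicate 4 (1.98 CPM at 73.4 CPM) as an exception.

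The same contrast in inflamed cells uses libraries that played no part in choosing the family, and there no member was called. The background was 0.102% called higher and 0.0429% called lower, so few genes of any kind were called. edgeR gave 0 called members and DESeq2 gave 1, and 3 of the 7 members other than Slamf1 had an unadjusted p under 0.05 in edgeR. The shares of all genes called by DESeq2 or under that unadjusted p are not given here, so nothing is read from these counts. Slamf8 was at 10.7, 30.3 and 11.6 CPM in inflamed CCR1/2+ve replicates 2 to 4 and at 18.7, 22.1, 74.2 and 29.6 CPM in inflamed CCR2+ve replicates 1 to 4. The groups overlapped, CCR1/2+ve replicate 3 lying above 3 of the 4 CCR2+ve libraries. The log2 fold change of -1.06 (SE 0.65) had a 95% interval of -2.63 to 0.51 and an adjusted p of 0.696 in edgeR, and without CCR2+ve replicate 3 it was -0.42. Slamf7 was at 3.34, 5.60 and 1.98 CPM against 6.24, 14.6, 24.9 and 17.3 CPM. These groups did not overlap, though CCR1/2+ve replicate 3 and CCR2+ve replicate 1 were close. Its log2 fold change was -2.14 (SE 0.53, 95% interval -3.36 to -0.91) with an edgeR adjusted p of 0.275, and the exact two-sided permutation test on log2 levels gave p = 0.0571, where the smallest p that 3 against 4 libraries allow is 0.0286. DESeq2 called Slamf7 with an adjusted p of 0.00022, and edgeR called it without CCR2+ve replicate 1 (adjusted p = 0.0338, log2 fold change -2.40).

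The remaining members differed by less than 1 on the log2 scale. Slamf9 was at 1.60, 3.80 and 2.68 CPM in inflamed CCR1/2+ve and 4.07, 4.65, 5.08 and 3.66 CPM in inflamed CCR2+ve monocytes, where the highest of the first group lies just above the lowest of the second (log2 fold change -0.71, 95% interval -1.36 to -0.06, edgeR adjusted p = 0.499). Cd84, a homophilic receptor of myeloid cells and platelets, was at 268, 289 and 283 CPM against 226, 228, 253 and 235 CPM. The Cd84 groups did not overlap, with a log2 fold change of 0.23 (95% interval 0.01 to 0.46), an edgeR adjusted p of 0.541 and p = 0.0286 in the exact two-sided permutation test. The 95% intervals were -0.46 to 0.39 for Slamf6, -0.25 to 0.39 for Cd48 and -0.27 to 0.21 for Ly9 on the log2 scale, with overlapping groups in each case. The median over the 8 members was -0.37 against -0.03 over all genes tested. That median counts Slamf1, which had 0 reads in the inflamed CCR1/2+ve libraries. Leaving out Slamf1, the middle value was that of Slamf6, -0.03, like that of all genes.

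**Figure D5:**
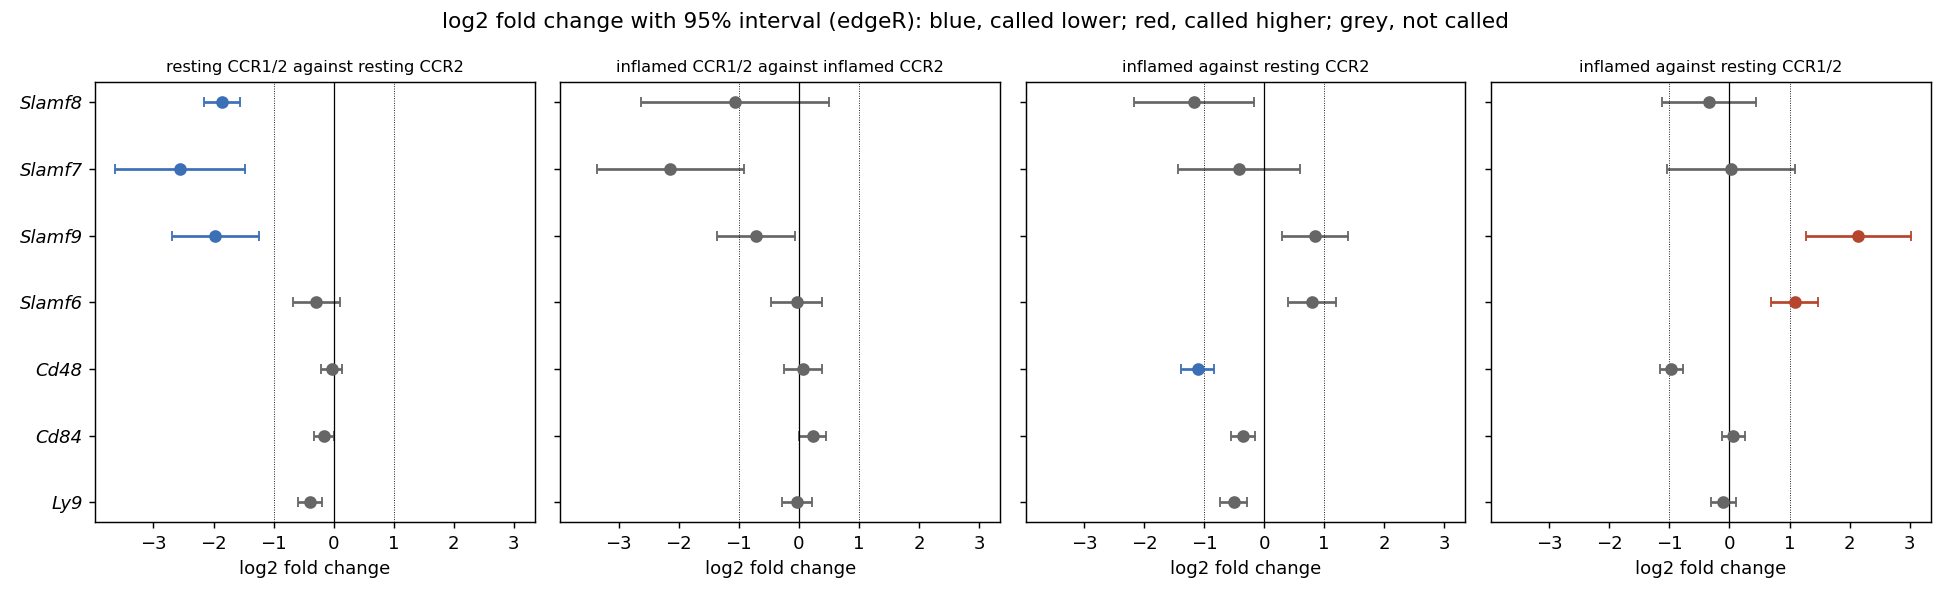
log2 fold change and 95% interval (edgeR) of 7 members in 4 comparisons, with dotted lines at the cutoff of 1 in either direction; blue marks members called lower, red members called higher and grey those not called. Slamf8, Slamf7 and Slamf9 are past the cutoffs at rest, where the family was chosen, and Cd48, Slamf6 and Slamf9 are the members called between inflamed and resting cells.

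The next comparison sets inflamed against resting libraries of each population. Whether both kinds were sorted and prepared together is not given in the sources used here, so inflammation and batch cannot be told apart. Words such as fell, rose and with inflammation describe this difference between libraries throughout. In CCR2+ve monocytes Cd48 fell and was the 1 member called, against a background of 19.2% called lower and 9.37% called higher. Cd48 was at 468, 441, 451 and 473 CPM in resting and 253, 248, 234 and 159 CPM in inflamed CCR2+ve replicates 1 to 4. Every inflamed library was below every resting one, and inflamed replicate 4 was the lowest. The log2 fold change was -1.11 (SE 0.13) with an edgeR adjusted p of 3.16e-06, it was -1.02 without resting replicate 1, and without inflamed replicate 4 it was -0.99 and no longer past the fold cutoff. Slamf6, a homophilic receptor best known from lymphocytes, was at 7.32, 10.0, 7.73 and 5.90 CPM in resting and 15.8, 16.2, 13.5 and 11.3 CPM in inflamed CCR2+ve monocytes, which did not overlap. Its log2 fold change of 0.79 (SE 0.19) passed the adjusted p in edgeR (0.00252) but not the fold cutoff, and without resting replicate 2 it was 1.02 and called. Slamf9 had a log2 fold change of 0.85 (SE 0.25, edgeR adjusted p = 0.0126), again short of the cutoff and called at 1.05 without resting replicate 4.

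Ly9 and Cd84 were slightly lower in inflamed CCR2+ve monocytes. Ly9 was at 107, 97.2, 103 and 101 CPM there, below all 4 resting libraries, with a log2 fold change of -0.51 (SE 0.10, edgeR adjusted p = 0.000879). Cd84 had a log2 fold change of -0.36 (SE 0.09, edgeR adjusted p = 0.00573) and also no overlap, but without resting replicate 1 it was -0.28 with an edgeR adjusted p of 0.0582. Slamf7 overlapped between the groups (log2 fold change -0.42, 95% interval -1.43 to 0.60, edgeR adjusted p = 0.49), and without resting replicate 1 its value was 0.0080. Slamf8 had a log2 fold change of -1.17 (SE 0.43) and inflamed replicate 3, at 74.2 CPM, was above 2 of the 4 resting libraries. It was -1.80 without that library, and it is not tested because the resting CCR2+ve level helped to choose it.

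In CCR1/2+ve monocytes Slamf6 and Slamf9 rose and were the 2 members called, against 9.16% of all genes called higher and 19.4% called lower. Slamf6 was at 5.68, 6.39, 5.84 and 6.25 CPM in resting replicates 1 to 4 and at 17.8, 11.3 and 13.1 CPM in inflamed replicates 2 to 4. The lowest inflamed library lay above the highest resting one. The log2 fold change was 1.08 (SE 0.18) with an edgeR adjusted p of 0.000407, it was 1.11 without resting replicate 1, and without inflamed replicate 2 it was 0.90 and no longer past the cutoff. Slamf9 went from 0.554 ± 0.163 CPM (SD, n = 4) to 2.69 ± 1.10 CPM (SD, n = 3), from 12 to 25 reads a library to 33 to 76, without overlap. Its log2 fold change was 2.14 (SE 0.40) with an edgeR adjusted p of 0.000858, and 2.06 without resting replicate 1. The T and NK cell list summed to 30.5 to 80.6 CPM in resting and 5.35 to 6.59 CPM in inflamed CCR1/2+ve libraries. Nearly all of that was Nkg7 (29.7 to 80.1 and 5.09 to 6.25 CPM), the one marker of 8 that reached 1 CPM as a group mean, and its part in the Slamf6 difference was not tested. The neutrophil list and the basophil and mast cell list summed higher in inflamed CCR1/2+ve libraries, and their part was not tested either.

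Cd48 was at 377, 392, 457 and 475 CPM in resting and 245, 236 and 231 CPM in inflamed CCR1/2+ve monocytes, again with no overlap. Its log2 fold change of -0.97 (SE 0.09, edgeR adjusted p = 2.51e-06) passed the p threshold and missed the fold cutoff of 1 by a small margin. The 95% interval was -1.16 to -0.78 here and -1.38 to -0.84 in CCR2+ve monocytes. Cd84 had a log2 fold change of 0.06 (95% interval -0.13 to 0.26), Ly9 of -0.10 (-0.31 to 0.10), Slamf7 of 0.03 (-1.03 to 1.09) and Slamf8, not tested, of -0.34 (SE 0.34). Inflamed Slamf8 libraries lay at 10.7, 11.6 and 30.3 CPM around the resting 18.8 to 21.9 CPM. These fold changes were scaled within the libraries compared. The median over all genes tested was -0.25 in CCR1/2+ve and -0.10 in CCR2+ve monocytes, against -0.04 and -0.39 over the 8 members. Leaving out Slamf1, the middle value was that of Slamf7 in both, 0.03 and -0.42. Relative to the medians over all genes tested, Cd48 was lower in both populations and Slamf6 and Slamf9 were higher in both. Scaling over all 19 libraries moved log2 values by a median of 0.13 in CCR1/2+ve and 0.07 in CCR2+ve monocytes, which turned Ly9 in CCR1/2+ve monocytes to 0.022.

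Whether inflammation acted differently on the 2 populations was tested as an interaction. edgeR called 0 members (background 0.0911% called higher and 0.123% called lower), DESeq2 called 0 too, and 3 of the 7 members had an unadjusted p under 0.05 in edgeR. The share of all genes under that unadjusted p is not given here, so nothing is read from the 3. The interaction was 1.25 for Slamf9 (95% interval 0.32 to 2.18, edgeR adjusted p = 0.228), 0.38 for Cd84 (0.12 to 0.64, 0.19) and 0.36 for Ly9 (0.07 to 0.65, 0.274) on the log2 scale. It was 0.10 for Cd48 (-0.25 to 0.44), 0.25 for Slamf6 (-0.30 to 0.80) and 0.40 for Slamf7 (-1.19 to 2.00). Slamf8 had 0.79 (SE 0.61), with no test. A difference of more than 1 in Slamf7 in either direction is within its interval.

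The libraries labelled inflamed CCR1 had the lowest level of every member but Slamf1, which was at 0 reads in them and in inflamed CCR1/2+ve libraries alike. Of the 8 members, 7 were called lower than in inflamed CCR2+ve monocytes (background 16.8% called lower, 14.4% called higher) and 7 lower than in inflamed CCR1/2+ve monocytes (14.6% and 13.2%). Cd48 was at 30.3, 42.5, 34.5 and 28.7 CPM, Cd84 at 68.5, 58.9, 73.5 and 80.8 CPM and Ly9 at 15.1, 22.8, 14.6 and 17.0 CPM, all below every other library. Against inflamed CCR2+ve monocytes their log2 fold changes were -2.71 (SE 0.16, edgeR adjusted p = 5.46e-10) for Cd48, -1.74 (SE 0.11, 9.60e-10) for Cd84 and -2.55 (SE 0.15, 2.24e-10) for Ly9. Against inflamed CCR1/2+ve monocytes they were -2.80, -1.99 and -2.54. The other 4 members were nearly absent. Slamf8 had 2 reads in 4 libraries against 3119 in inflamed CCR2+ve monocytes, a ratio of 0.000649 with an exact 95% counting interval of 7.85e-05 to 0.00235. Slamf6 had 4 reads, Slamf9 had 5 and Slamf7 had 12, with 9 of the 12 in replicate 4. The ratio of their levels to those in inflamed CCR2+ve monocytes was 0.00325 (interval 0.000883 to 0.00833) for Slamf6, 0.0132 (0.00428 to 0.0312) for Slamf9 and 0.00884 (0.00456 to 0.0155) for Slamf7. Single libraries held most of these few reads. Without replicate 3, which held 3 of the 4 Slamf6 reads, the Slamf6 ratio was 0.00108 (2.73e-05 to 0.00603). Without replicate 4, which held 4 of the 5 Slamf9 reads, the Slamf9 ratio was 0.00350 (8.85e-05 to 0.0196) and that of Slamf7 was 0.00292 (0.000602 to 0.00857). Intervals cover counting error only. In these libraries 6 of the 8 monocyte markers were called lower than in inflamed CCR2+ve monocytes and 2 were not called. Of the 8 neutrophil markers, 7 were called higher and 1 lower in the same comparison (14.4% and 16.8% of all genes). The T and NK cell list summed to 1360 to 1707 CPM, of which Nkg7 alone made 1360 to 1706 CPM, the basophil and mast cell list to 872 to 1021 CPM, led by Hdc at 687 to 784 CPM, and the stem cell and progenitor list to 150 to 204 CPM, led by Kit at 132 to 182 CPM. The inflamed CCR1 label and the cell content cannot be told apart.

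Of the partners of these 8 genes, 25 were followed, 23 of which passed the filter on low counts. Among receptors, Cd244a (the family member and CD48 receptor CD244) was at 35.8, 18.1, 25.5 and 12.0 CPM in resting CCR1/2+ve, 52.1, 44.8, 46.5 and 30.0 CPM in resting CCR2+ve, 109, 78.8 and 84.7 CPM in inflamed CCR1/2+ve and 75.1, 117, 69.6 and 68.4 CPM in inflamed CCR2+ve monocytes. It rose with inflammation while its ligand Cd48 was lower, with a log2 fold change of 1.85 in CCR1/2+ve (SE 0.33, edgeR adjusted p = 0.00144) and 0.85 in CCR2+ve monocytes (SE 0.19, 0.00144, short of the fold cutoff). Cd2, the other CD48 receptor, stayed at or under 3.23 CPM and was called higher in both populations with inflammation (1.17 in CCR2+ve, 2.41 in CCR1/2+ve). Of the adaptors, only Sh2d1b1 (EAT-2) was measured above a few reads. Sh2d1a (SAP) held at most 6 reads in a library and Sh2d1b2 (ERT) at most 4, and neither passed the filter.

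Sh2d1b1 was at 14.0 to 22.1 CPM in resting CCR1/2+ve and 9.85 to 16.5 CPM in resting CCR2+ve monocytes, and at 32.6 to 48.1 and 32.1 to 38.7 CPM in their inflamed counterparts. It rose by 1.13 (SE 0.16, edgeR adjusted p = 0.000147) in CCR1/2+ve and by 1.36 (SE 0.15, 2.57e-06) in CCR2+ve monocytes on the log2 scale. Uvrag, a partner of the Beclin 1 complex that Slamf1 protein is known to engage, was lower with inflammation in both (-2.49 and -2.55). It was at 62.5 to 89.4 CPM in resting and 10.7 to 20.0 CPM in inflamed libraries of these populations. In the libraries labelled inflamed CCR1 it was at 8.32 to 11.4 CPM. Pik3r4, of the same complex, was called higher in CCR2+ve monocytes (1.11), and Fgr (1.57), Inpp5d (the phosphatase SHIP-1, 1.06) and Itgb2 (1.26) in CCR1/2+ve monocytes. In all, 3 of the 23 were called higher and 1 lower in CCR2+ve, and 6 higher and 1 lower in CCR1/2+ve monocytes. Over all genes tested the shares were 9.37% higher and 19.2% lower in CCR2+ve and 9.16% and 19.4% in CCR1/2+ve monocytes. Their medians were 0.54 and 0.69, above those of all genes tested.

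At rest, Cd2 was past the cutoffs as lower in CCR1/2+ve monocytes, with 0.205 against 0.996 CPM. Between inflamed CCR1/2+ve and CCR2+ve monocytes edgeR called 0 of the 23, with 8 at an unadjusted p under 0.05. The interaction called 0, with 9. The share of all genes under that unadjusted p is not given here, so nothing is read from the 8 and the 9. In the libraries labelled inflamed CCR1, 9 of the 23 were called lower and 1 higher in both comparisons, against 16.8% and 14.4% of all genes in comparison with inflamed CCR2+ve and 14.6% and 13.2% with inflamed CCR1/2+ve monocytes. Lower were Cd244a, Cd2, Sh2d1b1, the kinases Fyn, Lyn, Fgr and Csk, and the ITAM adaptors Tyrobp and Fcer1g. Higher was Ncf1, a cytosolic subunit of the NADPH oxidase, at 600 CPM against 131 CPM in inflamed CCR2+ve and 107 CPM in inflamed CCR1/2+ve monocytes.

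Around the members, 34 other genes lie between them or within 100 kb, and 20 passed the filter. With inflammation, 2 of the 20 were called higher and 3 lower in CCR2+ve monocytes, and 1 higher and 7 lower in CCR1/2+ve monocytes, beside the same shares over all genes (9.37% and 19.2%, and 9.16% and 19.4%). Pigm, Alyref2 and B930036N10Rik were called lower in both. Their log2 fold changes, CCR2+ve first and CCR1/2+ve next, were -1.26 and -1.04 for Pigm, -1.30 and -1.11 for Alyref2, and -1.53 and -1.87 for B930036N10Rik. Tagln2, an actin-binding protein gene, rose in CCR2+ve monocytes from 368 to 777 CPM (log2 fold change 1.01), and Cfap45 (1.52) also rose there. In CCR1/2+ve monocytes Gm37010, annotated across Cd48 on the same strand with no exonic base in common, was called lower (-1.11), as were Gm37125 (-1.10), Gm37065 and Gm2710, the last 2 under 1 CPM, and Cd244a, annotated across Ly9, was the one called higher. Gm37065, across Slamf6 on the opposite strand, and Gm37125 were past the cutoffs as higher in resting CCR1/2+ve against CCR2+ve monocytes. They were 2 of the 20, with 0 lower, beside 2.34% higher and 1.90% lower over all genes. No neighbour was called between inflamed CCR1/2+ve and CCR2+ve monocytes by edgeR, where 0 had an unadjusted p under 0.05, or in the interaction, where 3 did. Nothing is read from these unadjusted counts, as the share of all genes is not given for them. The libraries labelled inflamed CCR1 had 7 of the 20 called lower and 2 higher against inflamed CCR2+ve monocytes (16.8% and 14.4% of all genes). Against inflamed CCR1/2+ve monocytes it was 6 lower and 1 higher (14.6% and 13.2%). Among them were Vangl2, Gm10521, A630035G10Rik, Gm37145 and Igsf9 as lower and 4933439K11Rik as higher in at least 1 of these comparisons.

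Last, the genes whose pattern over the 19 libraries was most like that of each member were listed by Pearson's r of log2 CPM, among 7681 genes with a mean of at least 10 CPM. The 19 points share the 4 libraries labelled inflamed CCR1, in which most members are near 0, so r is also given over the other 15 libraries. For Slamf8 they were Ifi205 (r = 0.994, and 0.911 over 15 libraries), Atf3 (0.993, 0.937), Ly6i (0.991, 0.871), Coq2 (0.990, 0.865) and Abca9 (0.989, 0.930). For Slamf7 they were H2-Eb1 (0.960, 0.899), H2-Aa (0.955, 0.844) and Txnip (0.951, 0.766), the first 2 being MHC class II chains. For Slamf6 they were Ms4a4b (0.994, 0.887), a feature with the identifier ENSMUSG000099999992 that the files do not name (0.993, 0.837) and Nlrp3 (0.992, 0.904). For Cd48 they were Itgb7 (0.992, 0.926), Gm9844 (0.991, 0.969) and Met (0.990, 0.917), for Cd84 they were Sat1 (0.993, 0.749), Tyrobp (0.991, 0.749) and Add3 (0.990, 0.787), and for Ly9 they were Skint3 (0.995, 0.905), Emilin2 (0.994, 0.900) and Cyp2ab1 (0.993, 0.862). Among members themselves over the 15 libraries, Slamf7 and Slamf8 had r = 0.829, Ly9 and Slamf8 had 0.780, and Cd48 and Slamf6 had -0.787. These are descriptions over libraries of different groups, and the lists depended on the libraries used. Ranked over the 15 libraries, 3 of the 5 genes named for Slamf8 and 1 of the 3 for Slamf7 stayed among the most similar, and 0 of the 3 for Slamf6, Cd48, Cd84 and Ly9.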

How the data were processed

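Per the labels, monocytes were sorted from mouse bone marrow and low-input RNA libraries were sequenced as read pairs. The authors aligned reads to GRCm38 with STAR 2.7.10a, keeping uniquely mapped reads, and deposited raw read counts per gene, from which levels in CPM were computed here. The strand column taken is not given in the sources used here. 1 column of the table, that of inflamed CCR1/2 replicate 1, matched no sample and was not used, so that group has 3 libraries.

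The 8 members and all gene lists were chosen with earlier results of these data known. The 18652 genes that averaged 1 read or more per library entered edgeR 4.0.16 (TMM, robust quasi-likelihood test, R 4.3.3) for each pair of groups, with Benjamini-Hochberg adjustment over all genes tested, and DESeq2 1.42.0 served as an alternative. The authors' own DESeq2 cutoffs, an adjusted p under 0.05 and a log2 fold of at least 1, were kept. Single values were also tested with exact two-sided permutation tests of log2 CPM (prior count 2). The fits were tested on simulated data. All replicate pairs differed by more than sampling noise (chi-square per degree of freedom from 15.1 to 111 over 27 pairs). Counting intervals are exact, at 95%.

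Whether replicate numbers pair the libraries was checked on deviations from group means over 7685 genes. Same-numbered resting libraries of the populations correlated at 0.306 to 0.611, and inflamed CCR1-labelled and CCR2+ve libraries at 0.134 to 0.247, so these numbers were taken to pair samples as a hint from the data, and a fit with the number as a block was run. A gene of the list of partners fixed at the start is not reported here and was left out of its counts. Named were the members, partners past the cutoffs or adaptors, neighbours past the cutoffs or overlapping a member, and the 5 (Slamf8) or 3 genes with the most similar pattern. The alternatives were other size factors, no filter or filterByExpr, no fold cutoff, the block, 1 fit over all 19 libraries, a prior count of 0.5, leaving out each library and, chosen after seeing the data, leaving out both replicate 1 resting libraries or, for read ratios, the library with the most reads.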

Additional observations from a re-analysis of the deposited data

Results flagged for a closer look

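Cd84 drew attention because, on levels scaled over all 19 libraries, all inflamed CCR2+ve libraries were below all resting ones and all inflamed CCR1/2+ve libraries above all resting ones. Scaled within the libraries compared, CCR2+ve monocytes had a log2 fold change of -0.36, whereas for CCR1/2+ve monocytes it was 0.065 and did not pass the test (95% interval -0.13 to 0.26, edgeR adjusted p = 0.589). The scaling over 19 libraries moved log2 values of the latter comparison by a median of 0.13, more than the value itself, so no rise in CCR1/2+ve monocytes is shown. The test of the difference, the interaction of 0.38, had an edgeR adjusted p of 0.19.

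In resting CCR1/2+ve monocytes, Slamf7 in replicate 1, at 6.14 CPM, stood far from the other 3 libraries by Dixon's test, at 2.04 to 2.54 CPM. That library is also the highest of its group for H2-Ab1 (83.5 CPM) and is one of the 2 with almost no Xist read. Chance gives such a distance in about 1 of 20 groups, and 26 groups of 4 were examined.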

How the results depend on the processing

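Of the alternatives to the counts of called members, 53 of 60 that leave out 1 library and 44 of 50 others stayed within 1.5 times the value given. In inflamed against resting CCR2+ve monocytes, the 1 called member became 2 with DESeq2, with filterByExpr and with all 19 libraries in 1 fit, and 5 with no fold cutoff. In the former 3 the added gene was Slamf8, whose resting level chose the family, so nothing is read from it and Cd48 is the 1 call left. The shares of all genes called are not given for the settings in this paragraph, so nothing is read from the changed counts. Leaving out 1 library gave 0 to 2 called members in CCR2+ve monocytes, 1 to 2 in CCR1/2+ve monocytes and 0 to 1 between inflamed CCR1/2+ve and CCR2+ve monocytes. In that last comparison DESeq2 called 1 member (Slamf7) and the replicate block 2, Slamf7 (-2.47) and Slamf8 (-1.25), without the shares of all genes that these settings called there. The pairing check did not hold there (same-numbered correlations from -0.314 to 0.496), so the libraries share only a number. Where numbers did pair, the block changed no count of calls (3 at rest, 7 in the libraries labelled inflamed CCR1).

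Single values changed sign in 17 cases, and no value that was called did so. At rest, Cd48 became 0.0128 without CCR1/2+ve replicate 1 (range with 1 library left out -0.0795 to 0.0128) and 0.0404 without both replicate 1 libraries. With inflammation, the ranges were -0.7268 to 0.0080 for Slamf7 in CCR2+ve monocytes (resting replicate 1) and -0.4282 to 0.6211 for Slamf7 in CCR1/2+ve monocytes (inflamed replicate 3 and resting replicate 1 at the ends), where Ly9 became 0.0216 in 1 fit. Between the inflamed populations, Slamf6 became 0.0137 under the replicate block and ranged from -0.2214 to 0.0923, Cd48 from -0.0653 to 0.1305 and Ly9 from -0.0911 to 0.0220. The interactions ranged from -0.0496 to 0.9409 for Slamf7 and from -0.0261 to 0.1773 for Cd48. The cause was not tested. With a prior count of 0.5, the genes named as most similar were kept in 5 of 5 cases for Slamf8, 3 of 3 for Cd48 and Cd84, 2 of 3 for Ly9 and 1 of 3 for Slamf6 and Slamf7. Depth limits Slamf1 and, at 12 to 25 reads a library in resting CCR1/2+ve monocytes, Slamf9.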
